A study of Mus musculus with 9 samples.

Results

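Nucleic acid sensing is followed in these data mainly through 10 genes, which were found by symbol among the 32286 features of the expression matrix. They were Ifih1, Ddx58, Dhx58, Zbp1, Eif2ak2 and Tlr3, the interferon-induced sensors, and Mavs, Tmem173, Tbk1 and Irf3, the constitutive adaptors, kinase and transcription factor that act behind them. Each of the 10 was present in the matrix and held UMIs (unique molecular identifiers, 1 per captured RNA molecule) in the cells compared here. The libraries were single-cell RNA libraries, made with a 5′ kit, of complete suspensions of primary mammary tumours. The tumours grew in Balb/c mice after injection of 168FARN cells, a mouse mammary tumour line, into the mammary fat pad. The 9 libraries fell into 3 groups of 3. The WT group carried 168FARN cells with the genotype label WT. The Kmt2c KO group carried cells in which the histone methyltransferase gene Kmt2c had been cut with a pool of guides to its first exon and Cas9, and the Kmt2d KO group carried cells cut in the same way in its paralogue Kmt2d. Each knockout was an edited pool and not a set of separate clones, so the 3 tumours of a group replicate the mouse and not the edit, and the hosts' own cells were unedited in every group. 168FARN cells had been transduced with an mCherry-tagged histone reporter, read here as the transcript H2BMc. The mice were female and were bought at a few weeks of age, and their age at tumour collection is not stated. The comparison asks which parts of the sensing machinery differ in level between genotypes, in the tumour cells and in the host endothelial cells and macrophages around them.

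The cytosol watches for misplaced RNA and DNA with a small set of receptors. RIG-I (Ddx58) and MDA5 (Ifih1) are helicases that bind viral or other unusual double-stranded RNA and signal through MAVS, a protein of the mitochondrial outer membrane, while LGP2 (Dhx58) is a related helicase without the signalling domain that tunes both. TLR3 binds double-stranded RNA in endosomes. PKR (Eif2ak2) is a kinase that stops translation when it binds such RNA, and ZBP1 binds Z-form nucleic acid and can trigger inflammatory cell death. STING (Tmem173) receives the signal of cytosolic DNA. The MAVS and STING routes meet at the kinase TBK1, which phosphorylates IRF3, and IRF3 then switches on type I interferon genes. Interferon in turn raises the sensors themselves, whereas MAVS, STING, TBK1 and IRF3 are made in most cells at all times.

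A short stretch of the sensors' start regions shows a motif of interferon-responsive promoters, and the 3 matching stretches are printed because the members that carry them are compared throughout. RefSeq promoter sequences (assembly GRCm38.p6, the patch of the mm10 build that the submitters name) covered 7 of the 10 members, each from 250 bases before to 50 bases after the gene start. The main motif searched was the core of the interferon-stimulated response element, written as GAAA, any 2 bases and GAAA again, on both strands. It lay in 3.44% of all 32851 promoters of that length, in 3 of the 4 induced members with a sequence and in none of the 3 constitutive members with one. A match describes letters and not a used site. The core is in capitals, in the direction of the gene.
Ifih1, chr2:62646206-62646235, minus strand, core on the gene's own strand from base 33 after the start: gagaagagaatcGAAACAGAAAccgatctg
Ddx58, chr4:40239804-40239833, minus strand, core on the opposite strand from base 3 after the start: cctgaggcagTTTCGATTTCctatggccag
Eif2ak2, chr17:78882535-78882564, minus strand, core on the gene's own strand from base 19 after the start: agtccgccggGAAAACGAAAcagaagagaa
Tlr3, Mavs, Tbk1 and Irf3 held no match in their windows. A second motif, the interferon-gamma-activated site core TTCNNNGAA, which reads alike on both strands, lay in 8.30% of all promoters and in 1 of the 7 members' promoters, that of Eif2ak2. The same assembly places Ifih1 at chromosome 2, 62595618 to 62646255, Ddx58 at chromosome 4, 40203777 to 40239825, Eif2ak2 at chromosome 17, 78850504 to 78882572, Dhx58 at chromosome 11, 100694884 to 100704271, Zbp1 at chromosome 2, 173206612 to 173218959, and Tlr3 at chromosome 8, 45395665 to 45411075. Predicted genes overlap Ifih1 (Gm39839), Dhx58 (Gm38483) and Eif2ak2 (Gm6548 and Gm26637), and how reads were shared with them was not tested.

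The matrix held 585680611 UMIs in 89147 cell barcodes, of which 58645 passed the study's cell filters. WT libraries were smaller, with 939 to 2380 kept cells against 5997 to 14525 in the knockouts, and any pair of libraries shared 2 to 206 barcode sequences. In WT 11.6 to 33.8% of barcodes were lost to the mitochondrial limit, in Kmt2c KO 7.78 to 9.96% and in Kmt2d KO 13.3 to 17.6%. Tumour cells were taken as cells with an H2BMc UMI, no Ptprc UMI and at most 1 endothelial and 1 macrophage marker, with no limit on fibroblast markers (16100 cells, 9117792 to 45786543 UMIs per library). Endothelial cells (444, 30 to 72 per library) and macrophages (820, 31 to 201 per library) were taken by at least 3 of 10 markers each, none of which is a member. Beside the genes that set the gates, Fabp4 and Igfbp3 led over the other gates in endothelial cells, Lyz2 and Ccl8 in macrophages, and Slpi and Nefl in tumour cells. Of the epithelial markers, Krt8 had 84510 UMIs in the tumour gate, whereas Krt18 had 30 and Epcam had 1. The gate required the reporter alone, and 12845 of its 16100 cells also held a Krt8 UMI. Levels are in CPM, the UMIs of a gene per 1000000 UMIs of the summed cells of a library. The 6 fibroblast and mural markers summed to 194 to 379 CPM in it. In the same cells 6 lymphocyte markers summed to 0.104 to 1.28. The 4 tumour markers (H2BMc, Krt8, Krt18 and Epcam) summed to between 0 and 111 CPM in the endothelial gate and between 6.93 and 209 in the macrophage gate, against 380 to 678 in tumour cells. Transcripts of the targeted genes did not check the labels, since a small edit need not lower a transcript's count: Kmt2c stood at 42.3 to 57.8 CPM in Kmt2c KO and 47.3 to 49.5 in WT tumour cells, and Kmt2d at 24.4 to 31.6 in Kmt2d KO and 15.1 to 21.3 in WT. Kmt2d KO library 2 stood apart from libraries 1 and 3 of its group in the members below. Its group rests on a genotype letter. The following measures of it were chosen after their values were seen, and they did not place it alike. Krt8 stood at 305 CPM in it, within the Kmt2c KO range (231 to 339) and below the other Kmt2d KO libraries (466 and 434) and WT (546 to 575). H2BMc, which also served to choose the tumour cells, stood at 112 CPM in it, at 91.6 and 117 in the other Kmt2d KO libraries, at 142 to 154 in Kmt2c KO and at 73.6 to 114 in WT. The mitochondrial limit removed 17.6% of its barcodes, 13.3% and 16.7% in the other Kmt2d KO libraries, 7.78% to 9.96% in Kmt2c KO and 11.6% to 33.8% in WT, so that these last 2 measures placed it outside the Kmt2c KO range and did not separate it from WT. Whether its label is right was not otherwise tested, and results that rest on it are given with and without it. In summed libraries, fewer cells that express a gene and less RNA per cell cannot be told apart.

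Tumour cells of Kmt2c KO tumours held more of all 6 interferon-induced sensors than WT tumour cells. Levels are given with libraries 1, 2 and 3 of a group in that order. Zbp1 stood at 99.5, 124 and 163 in Kmt2c KO, at 8.78, 96.5 and 9.78 in Kmt2d KO and at 9.40, 10.9 and 11.8 in WT. The Kmt2c KO libraries and Kmt2d KO library 2 lay far above the other 5, which did not part by genotype. Zbp1 rose 11.9-fold in Kmt2c KO over WT (log2 3.58 ± 0.82 SE, adjusted p = 0.0143). Here and below, log2 fold changes, their standard errors and adjusted p-values are from edgeR's quasi-likelihood test over all genes. Each group had n = 3 libraries unless a library is said to be left out. A gene was called below an adjusted p of 0.05.

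The 3 RIG-I-like helicases were also higher in Kmt2c KO, and in all 3 Kmt2d KO libraries 1 and 3 lay above every WT library by a smaller margin. Ddx58 stood at 53.2, 58.0 and 75.2 in Kmt2c KO, at 24.0, 58.9 and 24.6 in Kmt2d KO and at 21.2, 19.1 and 22.9 in WT, and rose 2.95-fold in Kmt2c KO (log2 1.56 ± 0.31, adjusted p = 0.00763). Dhx58 stood at 30.7, 32.4 and 41.8 in Kmt2c KO, at 10.9, 25.0 and 11.9 in Kmt2d KO and at 8.25, 8.32 and 9.98 in WT, and rose 3.95-fold (log2 1.98 ± 0.29, adjusted p = 0.00201). Ifih1, the helicase MDA5, stood at 5.31, 6.86 and 7.95 in Kmt2c KO, at 2.48, 4.11 and 2.80 in Kmt2d KO and at 2.30, 1.29 and 2.08 in WT, and rose 3.62-fold (log2 1.86 ± 0.27, adjusted p = 0.00203). The Kmt2c KO and WT libraries did not overlap for any of the 3. The share of all genes that parted in this way was not counted, here or below. WT values of Ifih1 rest on 22, 18 and 19 UMIs.

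Eif2ak2 and Tlr3 moved by less. Eif2ak2, the translation-blocking kinase PKR, stood at 56.8, 55.6 and 69.3 in Kmt2c KO, at 42.9, 65.2 and 41.6 in Kmt2d KO and at 44.1, 40.4 and 39.0 in WT, a 1.47-fold rise in Kmt2c KO (log2 0.55 ± 0.16, adjusted p = 0.0314). Tlr3, the endosomal receptor, stood at 8.09, 8.42 and 11.1 in Kmt2c KO, at 5.17, 9.69 and 6.31 in Kmt2d KO and at 5.95, 4.09 and 3.29 in WT, a 2.07-fold rise (log2 1.05 ± 0.26, adjusted p = 0.0188). For both genes the Kmt2c KO libraries lay above all WT libraries, with the share of all genes that did so not counted. The count of 6 of 6 stands against 9.65% of the 13941 genes tested called higher in Kmt2c KO and 9.32% called lower. The members were chosen with earlier results of these data known, so this count is no independent test. The 6 sensors had a median log2 fold change of 1.71, beside -0.00304 over all genes tested. Without WT library 2, and likewise without WT library 3, 3 of the 6 were called, namely Ifih1, Ddx58 and Dhx58. Of all genes, 683 of 14172 and 736 of 14212 were called higher in these fits. Zbp1, Tlr3 and Eif2ak2 kept their direction with adjusted p-values of 0.0554 to 0.101. Zbp1 and Eif2ak2 were also lost without WT library 1 (adjusted p = 0.0595 and 0.0712), Tlr3 and Eif2ak2 without Kmt2c KO library 3 (0.0664 and 0.104) and Eif2ak2 without Kmt2c KO library 2 (0.0638). In cells with at least 2 H2BMc UMIs, 5763 in all, Tlr3 (log2 0.71, adjusted p = 0.0624) and Eif2ak2 (0.47, adjusted p = 0.0657) were not called either. The estimate of spread was shared by the 3 groups. Without Kmt2d KO library 2, all 6 were called in Kmt2c KO against WT, beside 2026 of 14045 genes called higher. Zbp1 then had log2 3.58 ± 0.16 (adjusted p = 2.6e-08), Ddx58 1.56 ± 0.12 and Eif2ak2 0.55 ± 0.08 (adjusted p = 0.0004). The log2 value of Zbp1 was 3.58 in both fits, and what fell was its standard error. Kmt2d KO library 2 was left out for its sensor levels in these same data, so these calls are no independent test.

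Other measures moved with this comparison in the tumour cells. Endothelial markers summed to 16.3 to 21.7 CPM in Kmt2c KO, 7.95 to 16.2 in Kmt2d KO and 6.47 to 10.97 in WT, and macrophage markers to 8.33 to 10.4, 4.98 to 9.24 and 5.09 to 7.21. Tumour markers summed to 380 to 493 CPM in Kmt2c KO, 417 to 583 in Kmt2d KO and 620 to 678 in WT. The median tumour cell held 8616 to 11647 UMIs in Kmt2c KO, 11214 to 14587 in Kmt2d KO and 13692 to 23820 in WT. None of these overlapped between Kmt2c KO and WT, and their part in the rise of the sensors was not tested.

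**Figure D1:**
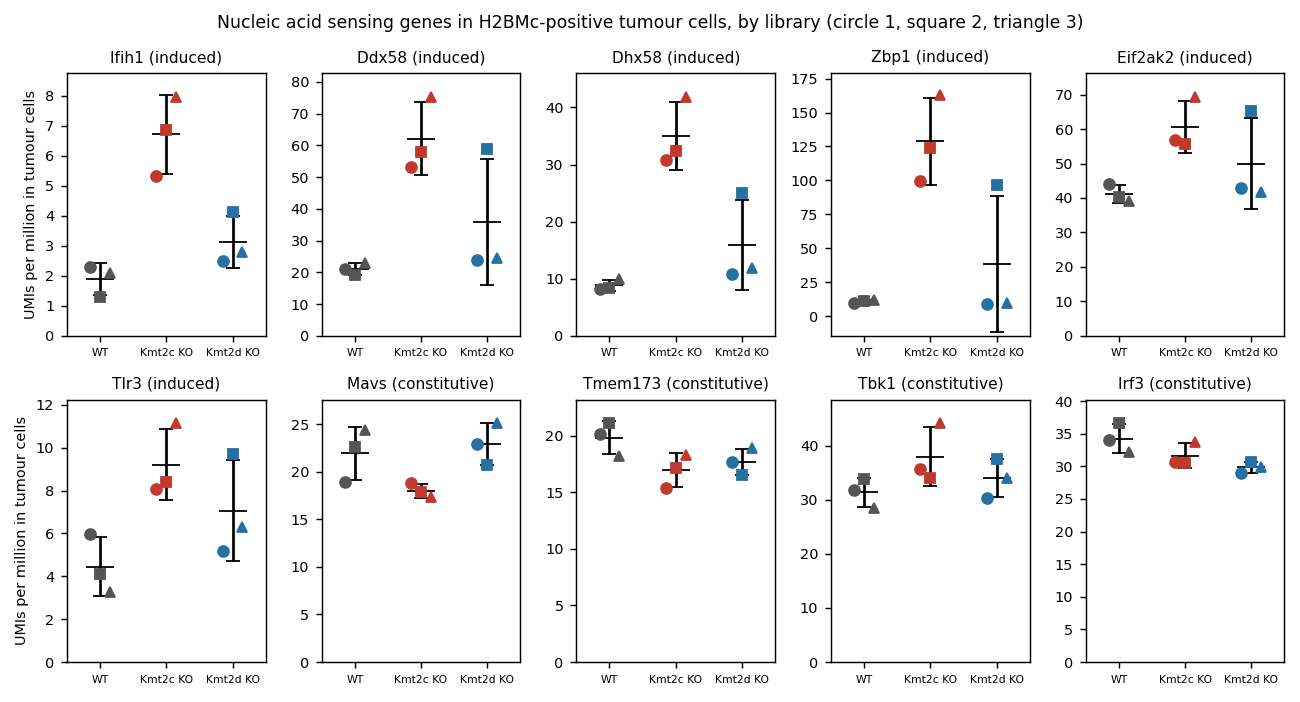
CPM of each gene in the summed H2BMc-positive tumour cells of each library (y axis, linear), by group (x axis), with the group mean and SD as a bar and the library number as the symbol. Zbp1 lay at 99.5 to 163 in Kmt2c KO and at 9.40 to 11.8 in WT, and Kmt2d KO library 2 (square) lay at 96.5, apart from 8.78 and 9.78 in the other Kmt2d KO libraries, whereas the 4 constitutive genes lay close together in all 9 libraries.

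The constitutive members stayed within a narrow range in the same cells. Mavs, the mitochondrial adaptor, ranged from 17.3 to 18.8 in Kmt2c KO, from 20.7 to 25.1 in Kmt2d KO and from 18.9 to 24.3 in WT. Tmem173, the adaptor STING, ranged from 15.4 to 18.3, from 16.6 to 18.9 and from 18.2 to 21.1 in the same order. Tbk1 ranged from 34.1 to 44.1 in Kmt2c KO, from 30.4 to 37.5 in Kmt2d KO and from 28.5 to 33.8 in WT, and Irf3 from 30.5 to 33.8, from 28.97 to 30.7 and from 32.1 to 36.6. Kmt2c KO libraries lay below all WT libraries for Mavs and above them for Tbk1, by narrow margins, and overlapped with WT for Tmem173 and Irf3. None of the 4 was called in Kmt2c KO against WT by edgeR or by DESeq2. By edgeR 3 of the 4 had an unadjusted p below 0.05, beside 4729 of 13941 genes tested. The log2 fold changes were -0.29 ± 0.12 for Mavs, -0.23 ± 0.10 for Tmem173, 0.27 ± 0.11 for Tbk1 and -0.12 ± 0.08 for Irf3, with adjusted p-values of 0.104 to 0.308. The median of the 4 was -0.17, with Tbk1 alone above 0.

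In Kmt2d KO tumour cells no member was called against WT by edgeR, where 2.22% of genes tested were called in either direction, nor by DESeq2, where 4.47% were. At an unadjusted p below 0.05 edgeR counted 5 of the 6 sensors, all higher, and Irf3, lower, beside 2388 of 13941 genes tested. The log2 fold changes were 1.80 ± 0.80 for Zbp1, 0.82 ± 0.29 for Dhx58, 0.74 ± 0.31 for Ddx58, 0.73 ± 0.28 for Ifih1, 0.64 ± 0.26 for Tlr3 and 0.25 ± 0.16 for Eif2ak2, with adjusted p-values of 0.185 to 0.458. Irf3 had a log2 fold change of -0.23 ± 0.08 (adjusted p = 0.167). The sensor values mix 2 libraries nearer WT with 1 nearer Kmt2c KO. With that library left out, values against WT were -0.22 ± 0.19 for Zbp1, 0.35 ± 0.14 for Dhx58, 0.19 ± 0.13 for Ddx58, 0.52 ± 0.26 for Ifih1, 0.37 ± 0.21 for Tlr3 and 0.02 ± 0.09 for Eif2ak2. Again no member was called by edgeR, beside 5.74% of genes tested. The median of the 6 sensors was 0.73 with library 2 and 0.27 without it.

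Between the knockouts, edgeR called no member and 0% of genes tested with all 9 libraries. At an unadjusted p below 0.05 it counted 4 of the 6 sensors, all lower in Kmt2d KO, and Mavs, higher, beside 2502 of 13941 genes tested. DESeq2 called 2 members, Ifih1 and Dhx58, both lower in Kmt2d KO, beside 2.4% of genes called lower and 4.31% called in either direction. Without Kmt2d KO library 2, edgeR called all 6 sensors lower in Kmt2d KO than in Kmt2c KO, beside 10.4% of genes called lower. Zbp1 then fell by 3.80 on the log2 scale (SE 0.18, adjusted p = 8.3e-08), Dhx58 by 1.63 (SE 0.13), Ddx58 by 1.37 (SE 0.12), Ifih1 by 1.35 (SE 0.20), Tlr3 by 0.69 (SE 0.18) and Eif2ak2 by 0.54 (SE 0.09). Of the constitutive members, Mavs was called and lay higher in Kmt2d KO (log2 0.39 ± 0.11, adjusted p = 0.0262), beside 9.24% of genes called higher. The 3 comparisons share their libraries in pairs. Kmt2d KO library 2 was left out for its sensor levels in these same data, so the calls without it are no independent test.

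**Figure D2:**
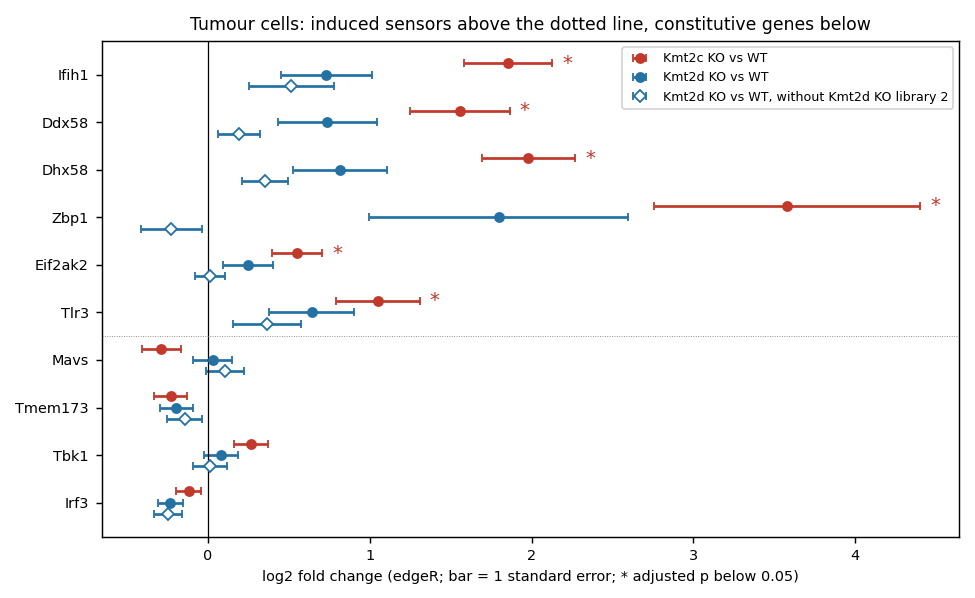
Log2 fold changes of the 10 genes in tumour cells (x axis, edgeR, bar = 1 standard error) for Kmt2c KO against WT and for Kmt2d KO against WT with all libraries and without Kmt2d KO library 2; a star marks an adjusted p below 0.05. The 6 sensors carry a star in Kmt2c KO alone, from 0.55 for Eif2ak2 to 3.58 for Zbp1, and Zbp1 in Kmt2d KO moves from 1.80 to -0.22 when library 2 is left out.

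Genes around the 10 members were taken from lists of 53 other sensing genes, of which 42 could be tested in tumour cells. In Kmt2c KO 21 were called higher and 1 lower, beside 9.65% and 9.32% of all genes tested. The lists were chosen with earlier results of these data known, so these counts are no independent test. Of further RNA sensors and their partners, 11 of 13 tested were higher and none lower, with Oas2 (log2 3.08 ± 0.44), Oasl2 (3.04 ± 0.59) and Oas1a (2.90 ± 0.34) leading. These belong to the oligoadenylate synthetase family, whose enzymes answer double-stranded RNA with a second messenger. Of DNA-sensing genes, 3 of 10 were higher and 1 lower. The lower gene was Trex1, an exonuclease that clears cytosolic DNA (log2 -1.62 ± 0.50, adjusted p = 0.0471), which was scarce, at 0.21 to 0.75 CPM in Kmt2c KO and 1.08 to 1.88 in WT. Its call was lost in 9 of 17 alternative settings, among them each WT library and Kmt2c KO library 1 or 2 left out, with adjusted p-values up to 0.167. Of adaptors, kinases and factors, 4 of 14 were higher, and Irf7, the interferon-induced relative of Irf3, rose most (log2 3.37 ± 0.44, adjusted p = 0.00111). Irf7 stood at 241, 340 and 399 CPM in Kmt2c KO, at 58.1, 178 and 57.5 in Kmt2d KO and at 32.4, 22.5 and 39.8 in WT, while Irf3 itself was not called. Of the genes that restrain the pathway, 3 of 5 were higher, led by Usp18 (2.99 ± 0.45), which dampens the interferon receptor.

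The median log2 fold change in Kmt2c KO was 1.15 for further RNA sensors, 0.09 for DNA-sensing genes, 0.33 for adaptors, kinases and factors and 1.18 for the restraining genes. In Kmt2d KO against WT, 1 of the 42 genes was called, Oas1a (log2 1.59 ± 0.34, adjusted p = 0.0402), a share near the 2.22% of all genes called in this comparison. Oas1a stood at 11.1, 25.1 and 10.6 CPM in Kmt2d KO, at 33.8, 39.6 and 40.3 in Kmt2c KO and at 5.33, 3.80 and 6.36 in WT, so that both knockouts lay above WT in every library. This call was lost in 7 of 19 alternative settings, among them any WT or any Kmt2c KO library left out, with adjusted p-values up to 0.196. The pathway's own product was scarce: Ifnb1 had 28 UMIs and Ifna4 5 over all 16100 tumour cells, and Ifna2, Ifnl2 and Ifnl3 had none. Over all 58645 kept cells Ifnb1 had 147 UMIs and Ifna4 12, so most of them lay outside the tumour gate. All 5 had none in the endothelial and macrophage gates. These gates held far fewer UMIs than the tumour gate, so a count of 0 there does not show absence. None of the 5 could be tested.

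Among tumour cells of the same library, most sensors were higher in cells with interferon-stimulated transcripts. The sensors were themselves listed as interferon-induced, with earlier results of these data known. Their rise here was therefore set in part by the lists and is no test. Tumour cells were thinned to 3000 UMIs each, which left out 898 shallower cells (349 Kmt2c KO, 527 Kmt2d KO and 22 WT), and were then divided by their UMIs of 8 interferon-stimulated genes that are no members. Cells with 2 or more such UMIs numbered 11867 and cells with none 1506. The former made up 60.4, 83.6 and 65.9% of thinned cells in Kmt2d KO libraries 1, 2 and 3. Their share was 89.4 to 93.6% in Kmt2c KO and 42.4 to 44.8% in WT. Another 1829 cells with exactly 1 lay at the limit and were left out (358 Kmt2c KO, 1018 Kmt2d KO and 453 WT). This limit is a range of a continuous measure and not a cell type. Ddx58, Dhx58, Zbp1 and Eif2ak2 were higher in the cells with interferon-stimulated UMIs in 9 of 9 libraries and Tlr3 in 8 of 9. As means over the 9 libraries, Zbp1 stood at 79.3 CPM in those cells and 12.2 in cells with none, Dhx58 at 26.4 and 5.25, Ddx58 at 49.5 and 19.5, Eif2ak2 at 62.5 and 36.8 and Tlr3 at 9.87 and 4.83. Ifih1 was too scarce for a ratio or a count of libraries, with 250 UMIs in the first set of cells and 5 in the second, where 7 of 9 libraries had none.

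The constitutive members had ratios of these means from 1.03 for Irf3 to 1.52 for Tmem173, and the sensors with a ratio from 1.70 for Eif2ak2 to 6.52 for Zbp1. Without Kmt2d KO library 2 the ratios ran from 0.99 for Irf3 to 1.49 for Tmem173 and from 1.58 for Eif2ak2 to 6.78 for Zbp1. Tmem173 was higher in 7 of 9 libraries (mean 19.6 against 12.9 CPM), Tbk1 in 6 (39.1 against 36.0), Mavs in 5 (19.8 against 15.1) and Irf3 in 5 (31.6 against 30.7). Within WT tumours alone, the pooled ratio was 3.95 for Zbp1 (95% interval 1.76 to 10.4, exact binomial), 2.16 for Dhx58 (1.04 to 4.93), 1.60 for Ddx58 (1.01 to 2.61), 1.41 for Eif2ak2 (1.02 to 1.961) and 0.98 for Tlr3 (0.43 to 2.34). Of the constitutive members there, Tmem173 had 1.98 (1.104 to 3.75, higher in 3 of 3 libraries), Mavs 1.64 (0.97 to 2.87), Tbk1 1.02 (0.72 to 1.44) and Irf3 0.85 (0.59 to 1.24). Mavs was higher in 2 of 3 WT libraries and rests on 21 UMIs in the cells with none. Within Kmt2c KO tumours it was 7.44 for Zbp1 (4.5 to 13.3), 10.2 for Dhx58 (3.49 to 49.7), 4.15 for Ddx58 (2.37 to 8.05), 2.66 for Tlr3 (0.90 to 13.0) and 1.73 for Eif2ak2 (1.18 to 2.67). Irf3 had 1.80 there (1.04 to 3.39), Tbk1 1.45 (0.93 to 2.43), Tmem173 1.38 (0.72 to 3.04) and Mavs 1.29 (0.67 to 2.85). The cells without interferon-stimulated UMIs were few in Kmt2c KO, 237 in all with 13 Irf3 UMIs and 3 each of Dhx58 and Tlr3. Single libraries moved some of these ratios by over 1.5 times. Without Kmt2c KO library 2 that of Eif2ak2 was 1.15 (0.76 to 1.85), that of Dhx58 17.0 and that of Tlr3 4.64, both on 1 UMI. Without Kmt2c KO library 1 that of Mavs was 0.83 (0.43 to 1.84) and that of Tmem173 2.86 (0.97 to 14.0), and without WT library 2 that of Tlr3 in WT was 1.76 (0.59 to 6.31). Within Kmt2d KO tumours, with 785 such cells, the sensors other than Ifih1 had ratios of 10.5 for Zbp1 (6.13 to 19.9), 5.84 for Dhx58 (3.03 to 12.9), 2.75 for Tlr3 (1.35 to 6.53), 2.12 for Ddx58 (1.59 to 2.88) and 1.963 for Eif2ak2 (1.54 to 2.53), and the constitutive members 1.07 for Tmem173 (0.77 to 1.505), 1.05 for Mavs (0.76 to 1.49), 0.97 for Tbk1 (0.77 to 1.22) and 0.89 for Irf3 (0.70 to 1.14). Much of this came from library 2, which held 330 of the 570 Ddx58 UMIs and 592 of the 722 Zbp1 UMIs in cells with interferon-stimulated UMIs. Without it Ddx58 had 1.37 (0.99 to 1.94), Eif2ak2 1.56 (1.19 to 2.07), Tlr3 1.961 (0.89 to 5.10), Dhx58 7.91 (3.01 to 29.5, on 4 UMIs in cells with none) and Zbp1 10.6 (3.56 to 52.2, on 3), and the constitutive members had 0.80 for Irf3 to 1.18 for Mavs. These intervals cover counting error only. Cells with no interferon-stimulated UMI still held 21.1 CPM of Zbp1 in Kmt2c KO (15 UMIs), against 5.52 in Kmt2d KO (13) and 4.82 in WT (7). Of the 13 UMIs in Kmt2d KO, 10 came from library 2 (23.5 CPM), and libraries 1 and 3 held 1.08 and 2.00 CPM.

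**Figure D3:**
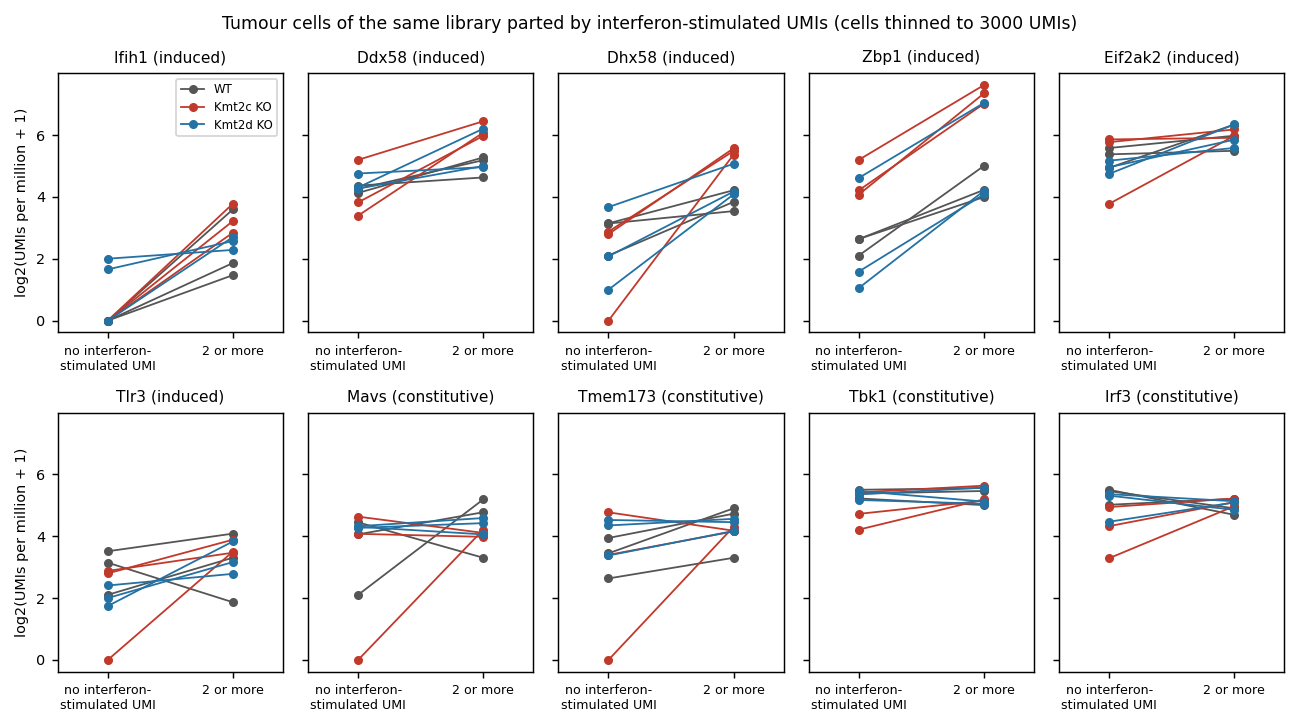
Levels of each gene in tumour cells of the same library without and with at least 2 interferon-stimulated UMIs (x axis; y axis, log2 of CPM plus 1; 1 line per library, coloured by group; cells thinned to 3000 UMIs). Lines for Ddx58, Dhx58, Zbp1 and Eif2ak2 rise in all 9 libraries, those for Ifih1 start from 0 UMIs in 7 of 9, and those for Mavs and Irf3 rise in 5 of 9.

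Host cells held more of most sensors than tumour cells did. The gates were compared in a joint fit with the library as a block, and the order of levels is given gene by gene. Ifih1 had the largest gap: its median over the 9 libraries was 2.80 CPM in tumour cells, 47.3 in endothelial cells and 45.8 in macrophages, a log2 difference from tumour cells of 3.90 ± 0.20 (adjusted p = 4.1e-17) and of 3.84 ± 0.22 (adjusted p = 1.4e-15). Endothelial cells and macrophages did not differ beyond their spread for Ifih1 (log2 -0.06 ± 0.21). Both host populations lay above tumour cells in 9 of 9 libraries. Zbp1 was highest in endothelial cells (median 116), then macrophages (76.4), then tumour cells (11.8), with each step called (endothelial over tumour log2 2.07 ± 0.14, macrophage over tumour 1.60 ± 0.18, macrophage over endothelial -0.48 ± 0.18). The last step had an adjusted p of 0.0277 and was lost in 7 of 11 alternative settings, Kmt2d KO library 2 left out among them (-0.38 ± 0.18, adjusted p = 0.0747). Ddx58 was also higher in both host populations than in tumour cells (log2 1.06 ± 0.12 and 0.79 ± 0.14), which did not differ from each other beyond their spread (-0.27 ± 0.16).

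Dhx58, the helicase that tunes the other pair, was highest in macrophages. Its median was 42.0 CPM there, 18.3 in endothelial cells and 11.9 in tumour cells. Macrophages exceeded tumour cells (log2 1.25 ± 0.19) and endothelial cells (0.87 ± 0.24), while endothelial and tumour cells were not told apart by the test (0.38 ± 0.20, adjusted p = 0.0915). Tlr3 was highest in endothelial cells, with a median of 17.1 CPM against 6.31 in tumour cells and 6.35 in macrophages. It exceeded tumour cells there (log2 1.67 ± 0.31) and was lower in macrophages than in endothelial cells (-1.87 ± 0.52). Tlr3 did not pass the low-count filter within either host gate. It entered the joint fit through its highest sums, which were mostly endothelial (up to 41.6 CPM, against at most 11.1 in tumour cells). Its entry was thus tied to the population where it was high. Both calls held in 11 of 11 alternative settings, no low-count filter among them. Macrophages held 33 Tlr3 UMIs in all and none in 3 of 9 libraries. Eif2ak2 was higher in endothelial than in tumour cells (0.69 ± 0.14). Its difference between macrophages and tumour cells was small (0.36 ± 0.16, adjusted p = 0.0448) and was lost in 8 of 11 alternative settings.

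Of the constitutive members, Tmem173 differed most in level between cell types. Its median was 81.1 CPM in endothelial cells, 48.5 in macrophages and 18.2 in tumour cells. The log2 difference from tumour cells was 2.32 ± 0.13 in endothelial cells and 1.44 ± 0.16 in macrophages, and macrophages lay below endothelial cells (-0.88 ± 0.16), all called. Both host populations exceeded tumour cells in 9 of 9 libraries. Tbk1 was higher in macrophages than in tumour cells (0.75 ± 0.17) with a median of 62.4 against 34.1, and its level in endothelial cells (42.2) was not told apart from either (0.25 ± 0.18 over tumour cells, macrophage over endothelial 0.50 ± 0.22, adjusted p = 0.0598). Without Kmt2d KO library 2 the latter was called (0.70 ± 0.23, adjusted p = 0.0125), beside 47.9% of genes called in either direction. Irf3 was not called between any of the 3 populations (medians 30.7, 39.7 and 26.9 in tumour cells, endothelial cells and macrophages). Mavs, alone among the members, was called lower in endothelial than in tumour cells (-0.58 ± 0.21, adjusted p = 0.0148, medians 14.2 and 20.7), on 40 endothelial UMIs. It passed the low-count filter of the joint fit through tumour and macrophage sums, since its endothelial sums reached at most 21.4 CPM. The call held in all 9 alternative settings that tested it. In all, 6 members were called higher and 1 lower in endothelial than in tumour cells, beside 33.6% of genes called higher and 32.5% called lower. In macrophages 7 were called higher than in tumour cells, beside 30% of genes. Between macrophages and endothelial cells 4 members were called, beside 51% of genes, so that the counts of members are to be read against a large background of differences between cell types.

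**Figure D4:**
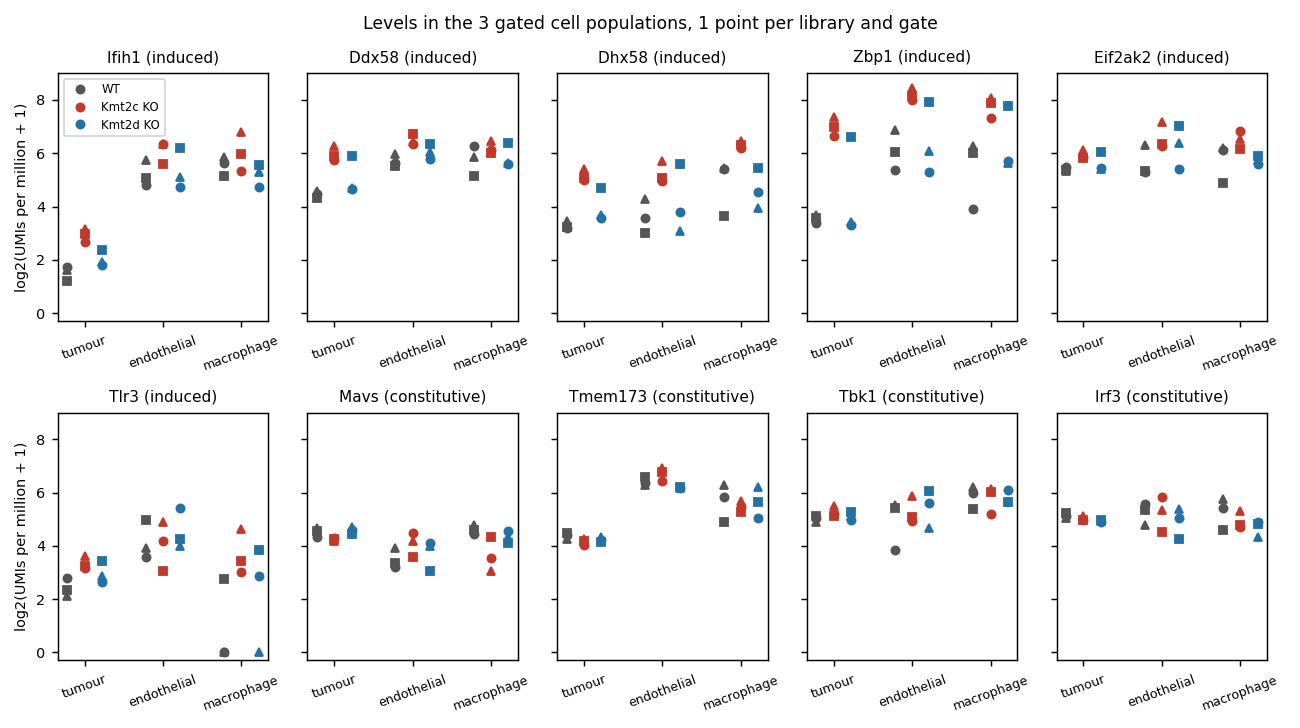
Level of each gene (y axis, log2 of CPM plus 1) in tumour cells, endothelial cells and macrophages (x axis), 1 point per library, coloured by group and shaped by library number. Ifih1 lies at a median of 2.80 CPM in tumour cells against 47.3 and 45.8 in the host populations, Tmem173 is highest in endothelial cells (median 81.1), and Irf3 lies at 26.9 to 39.7 in all 3.

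In endothelial cells, 1 member was called between Kmt2c KO and WT, beside 3.54% of the 5786 genes tested called higher. Zbp1 stood at 256, 284 and 352 CPM in Kmt2c KO, at 38.4, 244 and 66.9 in Kmt2d KO and at 40.6, 65.6 and 116 in WT. Kmt2c KO and WT did not overlap, and Kmt2d KO library 2 again lay with the Kmt2c KO libraries. How many of all genes parted in this way was not counted. Zbp1 rose in Kmt2c KO with a log2 fold change of 1.95 ± 0.47 (adjusted p = 0.0248), a call that was lost on leaving out Kmt2c KO library 2 or 3 or WT library 1 or 2, with log2 values of 1.67 to 1.98. It was also lost when 2 markers sufficed for the gate (log2 1.27, adjusted p = 0.0935), which let in 780 cells in place of 444. The other induced sensors had log2 fold changes of 1.56 ± 0.64 for Dhx58, 0.85 ± 0.40 for Eif2ak2, 0.83 ± 0.27 for Ddx58 and 0.82 ± 0.40 for Ifih1, none of them called. Their libraries held 3 to 44 UMIs of a gene each. The constitutive members had 0.32 ± 0.23 for Tmem173, 0.16 ± 0.49 for Tbk1 and 0.07 ± 0.40 for Irf3. In the wider gate Tmem173 turned to -0.74 (adjusted p = 0.0430) and Ifih1 to -0.32, so their direction in endothelial cells depends on the gate. Tlr3 and Mavs were too scarce to be tested, with 61 and 40 UMIs in the gate.

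Tumour markers moved with this comparison in part: they summed to 3.64 to 51.3 CPM in endothelial cells of Kmt2c KO, 44.8 to 111 in Kmt2d KO and 0 to 18.7 in WT, and 3 of the 4 (H2BMc among them, which the gate required to be absent) were at 0 over the gate. The part of this in the Zbp1 result was not tested. In Kmt2d KO against WT, edgeR called no member and 0.83% of genes, and DESeq2 called no member and 0.751% of genes. By edgeR none of the members had an unadjusted p below 0.05, beside 704 of 5786 genes tested. Zbp1 had a log2 fold change of 0.52 ± 0.50, and of -0.48 ± 0.35 without Kmt2d KO library 2. Between the knockouts edgeR and DESeq2 called no member, beside 0% and 2.45% of genes. By edgeR 2 members had an unadjusted p below 0.05, beside 677 of 5786 genes tested. Without Kmt2d KO library 2, Zbp1 was called lower in Kmt2d KO (log2 -2.44 ± 0.32, adjusted p = 3.4e-05), beside 3.25% of genes called lower. That library was left out for its sensor levels, Zbp1 among them, so this call is no independent test.

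Macrophages showed 2 called members in Kmt2c KO against WT, beside 6.58% of the 5559 genes tested called higher. Zbp1 stood at 159, 238 and 265 CPM in Kmt2c KO, at 50.8, 218 and 48.4 in Kmt2d KO and at 13.9, 63.5 and 76.4 in WT, and rose (log2 2.02 ± 0.52, adjusted p = 0.0168). Dhx58 stood at 72.1, 77.4 and 87.0 in Kmt2c KO, at 22.2, 43.1 and 14.5 in Kmt2d KO and at 41.6, 11.5 and 42.0 in WT, and rose (log2 1.29 ± 0.40, adjusted p = 0.0436). For both, every Kmt2c KO library lay above every WT library, and the share of all genes that parted so was not counted. Neither was called without Kmt2c KO library 2, without Kmt2c KO library 3 or without WT library 1, and Zbp1 alone was called without Kmt2c KO library 1, WT library 2 or WT library 3. With at least 4 markers no member was called, and DESeq2 called 1. WT libraries held 2 to 20 UMIs of either gene. The other tested members were not called, from 0.63 ± 0.38 for Ifih1 and 0.63 ± 0.33 for Eif2ak2 through 0.42 ± 0.34 for Ddx58 to -0.0042 ± 0.33 for Tbk1, -0.35 ± 0.37 for Tmem173 and -0.40 ± 0.41 for Irf3. Mavs and Tlr3 were too scarce to be tested.

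Tumour markers summed to 51.6 to 209 CPM in macrophages of Kmt2c KO, to 110 to 149 in Kmt2d KO and to 6.93 to 69.3 in WT, and fibroblast and mural markers to 162 to 243, 127 to 248 and 19.1 to 41.6. The median macrophage held 1943 to 2164 UMIs in Kmt2c KO, 2469 to 4211 in Kmt2d KO and 2636 to 3438 in WT, with no overlap between Kmt2c KO and WT. The part of these in the result was not tested. In Kmt2d KO against WT no member was called by edgeR, beside 5.41% of genes, or by DESeq2, beside 3% of genes. By edgeR none had an unadjusted p below 0.05, beside 1080 of 5559 genes tested. Zbp1 had a log2 fold change of 1.04 ± 0.56, and of -0.11 ± 0.48 without Kmt2d KO library 2. Dhx58 had -0.15 ± 0.48. Between the knockouts no member was called by edgeR, beside 0.108% of genes, or by DESeq2, beside 1.46%. By edgeR 4 sensors had an unadjusted p below 0.05, beside 457 of 5559 genes tested. Without Kmt2d KO library 2, Zbp1 (log2 -2.14 ± 0.39) and Dhx58 (-2.02 ± 0.44) were called lower in Kmt2d KO, beside 1.85% of genes called lower. As that library was left out for its sensor levels, these calls are no independent test.

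The size of the Kmt2c KO difference was then compared between cell populations within the joint fit. For Zbp1 it was smaller in endothelial cells than in tumour cells by 1.58 ± 0.33 on the log2 scale (adjusted p = 0.00472), beside 2.77% of genes called. In macrophages it was smaller than in tumour cells by 1.48 ± 0.43 for Zbp1 (adjusted p = 0.0240) and by 1.13 ± 0.34 for Ddx58 (adjusted p = 0.0265), beside 10.3% of genes called. The WT level of Zbp1 was 10.7 ± 1.23 CPM in tumour cells, 74.0 ± 38.3 in endothelial cells and 51.3 ± 33.0 in macrophages (mean ± SD, n = 3), and that in Kmt2c KO 129 ± 31.8, 297 ± 49.2 and 221 ± 55.4. Without WT library 3, none of the 3 differences was called. The Zbp1 difference in macrophages was also lost without WT library 2 (adjusted p = 0.0986), and that of Ddx58 without WT library 1 (0.160) or Kmt2c KO library 2 (0.0592). For the Kmt2d KO difference edgeR called no member, beside 1.28% of genes in endothelial cells and 7.38% in macrophages. There 1 and 2 members had an unadjusted p below 0.05, beside 1116 and 1896 of 8849 genes. Without Kmt2d KO library 2 no member did: the lowest unadjusted p was 0.0785 for Ifih1 in endothelial cells and 0.0706 for Dhx58 in macrophages.

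The genes whose levels over the 9 tumour-cell sums most resembled the mean standardised level of the 6 sensors were Parp11, 9930111J21Rik2, Ddx60, Cd274 and Tm6sf1, out of 12164 genes ranked, with Pearson r from 0.995 to 0.996 over 9 libraries. The libraries fall mainly into 2 sets, the 3 Kmt2c KO libraries with Kmt2d KO library 2 and the other 5, so that r mostly describes this parting and carries no test. The levels were more graded for Ifih1, at 4.11 CPM in Kmt2d KO library 2, 5.31 to 7.95 in Kmt2c KO and 1.29 to 2.80 in the other 5. Of the constitutive members, Tbk1 had an r of 0.81 with the same mean, Irf3 -0.21, Tmem173 -0.64 and Mavs -0.77. Cd274, for example, stood at 23.7, 32.7 and 49.8 CPM in Kmt2c KO, at 5.59, 28.8 and 5.39 in Kmt2d KO and at 4.18, 3.44 and 4.17 in WT. Ddx60 stood at 39.5, 44.5 and 63.3, at 8.11, 43.8 and 10.5 and at 8.35, 6.81 and 7.24 in the same order.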

How the data were processed

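Complete suspensions of 9 primary 168FARN tumours were profiled by single-cell RNA sequencing. The authors made the deposited matrix with Cell Ranger 7.0.1 (build mm10 per the labels), and its values are raw UMI counts per gene and cell, as deposited. The sources used here do not state whether its aggregation step equalised depth. The group of a library was read from the genotype letter in the aggregation table (C, D or X), matched to the comparison names used by the study. Library numbers only name libraries.

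The study's limits on cells were applied (over 500 and under 7500 genes, under 15% mitochondrial UMIs). Tumour cells held at least 1 H2BMc UMI, no Ptprc and at most 1 endothelial and 1 macrophage marker. Endothelial cells held at least 3 of 10 markers (no H2BMc, no Ptprc) and macrophages at least 3 of 10 (no H2BMc, no lymphocyte marker). No doublet caller was run, and the gates drop cells with markers of another type. Counts were summed per library and tested with edgeR 4.0.16 (R 4.3.3; filterByExpr, TMM, glmQLFit and glmQLFTest), with the 9 libraries in 1 fit and Benjamini-Hochberg adjustment over all genes tested (called below 0.05). Standard errors were derived from the estimate and its F statistic. The joint fit had library, population and population by genotype. DESeq2 1.42.0 was an alternative, and the tests were checked on simulated data. Precision is limited by depth: 144228 to 723189 UMIs per library in macrophages, 176224 to 538401 in endothelial cells and 9117792 to 45786543 in tumour cells. Each knockout was 1 edited pool, so p-values measure the spread between tumours and not between edits. The 3 groups shared 1 estimate of that spread, so Kmt2d KO libraries also enter the p-values of Kmt2c KO against WT.

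The members and gene lists were chosen with earlier results of these data known. Named were all 10 members, at most 5 called higher and 5 called lower per tumour-cell comparison of the further lists, and the 5 genes most like the sensors in pattern among genes with at least 200 UMIs. Columns of the authors' own comparisons were not used.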

Additional observations from a re-analysis of the deposited data

Results flagged for a closer look

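In 3 instances the Kmt2c KO difference was itself different between cell populations by the interaction term of the joint edgeR fit. The log2 difference of Zbp1 was lower in endothelial cells than in tumour cells by an interaction of -1.58, and lower in macrophages than in tumour cells by -1.48. That of Ddx58 was lower in macrophages than in tumour cells by -1.13. Zbp1 was higher in Kmt2c KO than in WT in all 3 populations. Over 11 alternative settings, the first value ranged from -1.82 to -1.20 with adjusted p-values from 1.3e-06 to 0.158, the second from -1.84 to -1.21 with adjusted p-values from 0.00358 to 0.296, and the third from -1.32 to -0.97 with adjusted p-values from 0.0143 to 0.160. Groups of 3 libraries were too small for a test of single outlying libraries, so the position of Kmt2d KO library 2 is given as values.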

How the results depend on the processing

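Alternatives were other scaling, other tests, no low-count filter, other gates and each library left out. In Kmt2c KO tumour cells, Ifih1, Ddx58 and Dhx58 stayed called in all 19. The count of called members ranged from 3 to 6 on leaving out a library. For Kmt2d KO against WT 1 member was called without the filter (Dhx58), beside 571 of 23295 genes. Between the knockouts 2 were called in cells with at least 2 H2BMc UMIs, beside 185 of 12477 genes, and 2 by DESeq2, beside 575 of 13350. Without the filter 3 were called, beside 629 of 23295 genes, and on leaving out a library 0 to 7. Over all genes of tumour cells, 2644 were called in Kmt2c KO against WT (1285 to 4069 over the alternatives), 310 in Kmt2d KO against WT (101 to 806) and 0 between the knockouts (0 to 2764, the highest without Kmt2d KO library 2). Without the filter 60.6% of calls in Kmt2c KO and 61.5% in Kmt2d KO were higher, against 50.9% and 46.8%. The cause was not tested.

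In endothelial cells the count ranged from 0 to 1 on leaving out a library for Kmt2c KO against WT and between the knockouts. It was 1 for Kmt2d KO against WT with at least 2 markers (Tmem173) and 1 between the knockouts without the filter. In macrophages the Kmt2c KO count was 0 with at least 4 markers, 1 by DESeq2 and 0 to 2 on leaving out a library, and that between the knockouts 2 without the filter and 0 to 2 on leaving out a library. The interaction count was 0 to 1 for endothelial cells and 0 to 2 for macrophages on leaving out a library, and 1 for macrophages without the filter. For most of these settings the share of all genes called is not given here.

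No value that changed sign had been called, and of those below only Tmem173 in the wider endothelial gate was called after it. There the Kmt2c KO count stayed at 1 because Zbp1 was lost and Tmem173 was called lower. With at least 2 endothelial markers, Kmt2c KO against WT gave log2 -0.32 for Ifih1, -0.14 for Irf3 and -0.74 for Tmem173, and Kmt2d KO against WT -0.14 for Zbp1. Irf3 gave -0.0162 without the filter there, and -0.0796 between macrophages and tumour cells. In macrophages Tbk1 gave 0.0177 without the mitochondrial limit, 0.36 with at least 4 markers, 0.0450 without the filter and 0.0102 with RLE scaling, and Dhx58 in Kmt2d KO gave 0.45 with at least 4 markers. Tmem173 between the knockouts gave -0.0059 after thinning. On leaving out a library, log2 ranges for Kmt2d KO against WT were -0.22 to 2.27 for Zbp1 and -0.0712 to 0.12 for Mavs in tumour cells, -0.48 to 1.05 for Zbp1 and -0.38 to 1.22 for Dhx58 in endothelial cells, and -0.11 to 1.48 for Zbp1 and -0.72 to 0.20 for Dhx58 in macrophages. For Kmt2c KO against WT they were -0.31 to 0.39 for Irf3 and -0.19 to 0.44 for Tbk1 in endothelial cells, and -0.17 to 0.24 for Tbk1 and -0.60 to 0.10 for Tmem173 in macrophages. Tmem173 between the knockouts in tumour cells ranged from -0.0373 to 0.0870. Between populations they were -0.10 to 0.10 for Irf3 and -2.54 to 0.0604 for Tlr3 (macrophages against tumour cells) and -0.13 to 0.12 for Ifih1 (macrophages against endothelial cells). No paired analysis was possible because the libraries carry no replicate number of the labels.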
